A study of Macaca nemestrina with 58 samples.

Results

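This comparison sets the vaginal biopsy labelled 7th against the biopsy labelled 5th in the same animal, in the 6 pig-tailed macaques (Macaca nemestrina) of the LNG arm. All 6 LNG animals had an array at both times, which gives 12 of the 58 arrays of the series and 6 of its 15 animals. LNG is the name in the sample labels for what is read here as the arm that, per the study's design text, took a combined oral contraceptive (COC), a progestin together with an estrogen. That text places the COC biopsy 5 weeks after the first dose, and what 7th counts is not stated in the sources used here. The other animals of the series form the arm labelled DMPA, whose treated biopsies are labelled 1D4 and 2D2. Of these animals, 8 had an array at both of those times. The DMPA labels name several doses, which were pooled wherever that arm is used below.

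BB967, BB269 and BB4870 were labelled High and BB173, BB537 and BB4800 were labelled Low, with no unit. The mark (A-) stood on 1 of 6 arrays at 5th (BB4870) and on 4 of 6 at 7th (BB173, BB537, BB269 and BB4870), was gained between the times by 3 animals, and was counted here within its time. Its meaning is not given in the labels. Each animal also had untreated baseline biopsies in named phases of the menstrual cycle, 11 in all, with 1 for BB537 and 2 for each of the other animals. Every animal biopsied at these times had been treated, so that effects of longer treatment, of the date and of taking several biopsies cannot be told apart. The ages of the animals are not given in the labels.

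The wall of the vagina is lined by a stratified squamous epithelium. Basal cells at its floor divide, and their daughters move upward, build desmosomes and keratins, and end as flat cells with a cornified envelope, a shell of cross-linked protein. Estrogen is known to thicken this epithelium and progestins are known to oppose it. Below it lie a collagen-rich connective tissue with vessels and immune cells, and then smooth muscle. A pinch biopsy takes some of each, so that in such bulk tissue fewer cells of a type and less RNA per cell cannot be told apart.

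The arrays were made for the rhesus macaque, and all levels are log2 values as deposited, so that a difference of 1 is a 2-fold difference. Array medians lay between 6.07 and 6.25. Of the 8 markers fixed for squamous cells all were kept after the brightness filter, with means per treated array between 7.65 and 13.28, and the 3 kept basal markers had means of 9.57 or above. The 6 kept columnar markers lay between 6.51 and 9.62 and the 2 kept skeletal muscle markers between 6.39 and 7.26. As a sign of RNA quality, the difference between the 3' and 5' ends of the GAPDH control transcript was 2.05 ± 0.61 (SD, n = 6) at 5th and 2.11 ± 0.38 at 7th, with 3 animals higher and 3 lower at 7th (exact permutation p = 0.719, two-sided). For actin the change was 0.11 ± 0.17, higher in 5 of 6 animals (exact permutation p = 0.0938, adjusted over 2 tests 0.188, smallest possible 0.0312).

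A pair of biopsies stood apart from the others and entered many of the differences. The 5th array of BB4800 had low levels of several epithelial genes, though not of all. TP63, the master transcription factor of basal squamous cells, was at 5.79 there and between 11.69 and 12.35 in the other 11 treated arrays. E-cadherin (CDH1), which joins epithelial cells, was at 5.97 in that array and at 9.99 or above in the rest. The desmosomal cadherin DSC2 was at 5.35 against 11.23 or above, and the epithelial serpin SERPINB5 at 5.29 against 10.06 or above. The basal marker ITGB4, in contrast, was at 11.10 there, within the range of the other treated arrays, 10.57 to 11.74. The mean of 8 basal keratinocyte genes was 9.32, against 10.09 or above in the others. Its cornified envelope mean, 6.57, was near that of BB173 at 5th, 6.77. The same array had the highest mean of 15 smooth muscle genes, 12.05. The 5th array of BB4870 was the reverse in its stroma: collagen gene COL1A1 was at 8.75 there and at 12.55 or above in the other treated arrays, and the smooth muscle mean was 7.47. Both were close to that animal's baseline, 8.61 for COL1A1 and 7.61 for smooth muscle. At 7th BB4870 had the highest smooth muscle mean, 10.50, and its COL1A1 was at 13.50. The share of these differences that comes from which tissue layers each pinch took was not tested, and results are given below with and without these animals.

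Over all probe sets, the 7th and 5th times did not differ in a way that passed the test. None of 31624 kept probe sets (0 percent) had an adjusted p under 0.05 in limma, fitted with the animal as a block, where the smallest was 1.00. Before adjustment 946 probe sets (2.99%) had a p under 0.05, 392 higher and 554 lower at 7th. The fitted difference had a median standard error of 0.17 and a median size of 0.11, and 144 probe sets (0.455%) differed at least 2-fold on average. For 27757 probe sets (87.8%) the 95% interval of the difference lay within a 2-fold change in either direction, which bounds the mean change for most of the array but not for the genes that vary most between animals. Without BB4800 there were again 0 calls and 864 probe sets at an unadjusted p under 0.05, without BB4870 0 and 1374, and without both animals 0 and 466.

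Behind these small means lay large changes of single animals. Over the kept probe sets, the SD of the 7th minus 5th difference was 0.37 in BB173, 0.44 in BB967, 0.49 in BB537, 0.53 in BB269, 0.88 in BB4870 and 0.99 in BB4800. The share of probe sets that differed at least 2-fold ran from 1.89% in BB173 to 18.1% in BB4800. Between BB4870 and BB4800 the changes were correlated negatively over probe sets (r = -0.40), and between the other pairs of animals r lay between -0.24 and 0.22. These are correlations across probe sets on the same arrays and are given as a description. For 7 of the 12 treated arrays the array most like it was the same animal's other array. The differences within an animal had a median SD of 0.51 over 6 pairs, and those between animals at the same time one of 0.81 over 30 pairs. In the DMPA arm, the SD of the 2D2 minus 1D4 difference was 0.48 to 0.68 in 8 animals, with a median of 0.54. BB173 and BB967 lay below that range, and BB4870 and BB4800 above it. The mean SDs of the arms differed by 0.06 (exact two-sided permutation p = 0.525), which with so few animals does not show that the arms are alike.

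**Figure D1:**
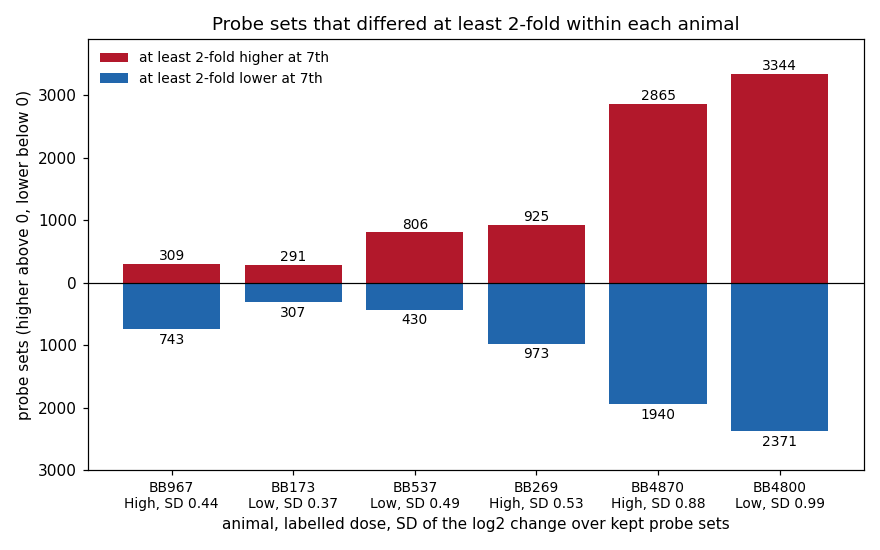
Number of kept probe sets with a log2 level at least 1 higher (red, above 0) or lower (blue, below 0) at 7th than at 5th in each of the 6 animals, with the labelled dose and the SD of the change under each bar. BB4870 and BB4800 had 2865 and 3344 probe sets higher, and the other animals between 291 and 925.

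The list with the lowest median difference was smooth muscle, the contractile layer below the mucosa, and its change also varied most between animals. All 15 measured smooth muscle genes had a lower mean level at 7th than at 5th, with a median difference of -1.07, where the median of all 11199 genes was -0.01. Of all 11199 genes, 5827 were lower and 5371 higher at 7th. None passed over all probe sets. At an unadjusted p under 0.05 there were 3 of 15 lower and 0 higher, while 2.03% of all genes were lower and 0.786% higher by that rule. The mean of the list was lower in 5 of 6 animals, with a change of -3.99 in BB4800 (from 12.05 to 8.06), -2.60 in BB269, -2.20 in BB173, -1.75 in BB967 and -0.08 in BB537. In BB4870 it was 3.04. The median over the 15 genes was -1.98 without BB4870, -0.53 without BB4800 and -1.57 without both.

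ACTG2, the actin of visceral smooth muscle, showed the pattern most clearly. Its level at 5th was 11.08 in BB967, 11.17 in BB173, 7.48 in BB537, 11.61 in BB269, 5.97 in BB4870 and 13.11 in BB4800. At 7th it was 5.73, 5.52, 6.75, 6.11, 11.22 and 5.40 in the same order. Thus 4 animals went from above 11 to near 6, BB537 stayed low at both times and BB4870 went the other way. The fitted difference was -3.28 ± 1.18 (SE, unadjusted p = 0.00828, adjusted p = 1.00 in limma), or -4.99 ± 1.16 without BB4870 and -2.40 ± 1.27 without BB4800. The SE and p use a spread estimated over all 57 samples. The changes of the 6 animals had an SD of 4.77, and the p does not measure that spread. A further ACTG2 probe set had -3.42 ± 1.27. Calponin (CNN1), which binds actin in the contractile apparatus, differed by -2.11 ± 0.89 and KCNMB1, a subunit of a calcium-activated potassium channel, by -1.27 ± 0.60. The smooth muscle myosin gene MYH11 differed by -1.94 ± 1.23. Its level was 4.83 at 5th and 12.08 at 7th in BB4870, while in BB4800 it was 13.19 and 6.89.

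Set beside the baseline, the 5th time and not the 7th was the one that stood out for smooth muscle in most animals. ACTG2 was at 4.59 to 10.08 over the 11 baseline biopsies with a median of 6.42. Its fitted difference from baseline was 3.38 ± 1.04 at 5th (adjusted p = 0.0698) and 0.10 ± 1.04 at 7th (adjusted p = 0.963). The median over the list was 2.11 at 5th and 0.86 at 7th against the same baseline biopsies.

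Connective tissue genes had no such mean difference. BB4870 was opposed to the other 5 animals in both kinds of genes, with 3.04 in smooth muscle. Most of these 5 fell by less in the matrix list mean, with changes from -0.87 to -0.12, against -3.99 to -0.08 in smooth muscle. The mean of 30 extracellular matrix genes was 7.36 at 5th and 10.62 at 7th in BB4870, a gain of 3.26, with 7.48 at its baseline. In the other animals it was between 10.23 and 11.26 at 5th and at most 10.45 at 7th, lower in 5 of 5. The list's median difference was 0.05, and -0.58 without BB4870. Of the 30 genes, 1 was lower and 0 were higher at an unadjusted p under 0.05, where 2.03% and 0.786% of all genes were. COL1A1, the main fibrillar collagen gene, differed by 0.23 ± 0.80 (SE), and by -0.67 ± 0.82 without BB4870. In 17 fibroblast genes the median was -0.12, with changes of the list mean from -1.22 to -0.29 in 5 animals and of 3.01 in BB4870. Against baseline, matrix genes had medians of 1.55 at 5th and 1.50 at 7th. Endothelial genes, 21 of them, had a median of 0.11, which was 0.33 without BB4800 and -0.27 without BB4870. For 5 mast cell genes it was -0.10, and 0.17 and -0.35 in the same order.

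TNC, the matrix glycoprotein tenascin-C, was lower at 7th in 6 of 6 animals. It was between 8.03 and 9.66 at 5th with a median of 9.39, and between 5.41 and 8.64 at 7th with a median of 8.14, so that the times overlapped. Its difference was -1.39 ± 0.42 (SE; unadjusted p = 0.00200). Its change in BB269, -4.17, was the largest, and without BB269 the value was -0.84 ± 0.42.

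**Figure D2:**
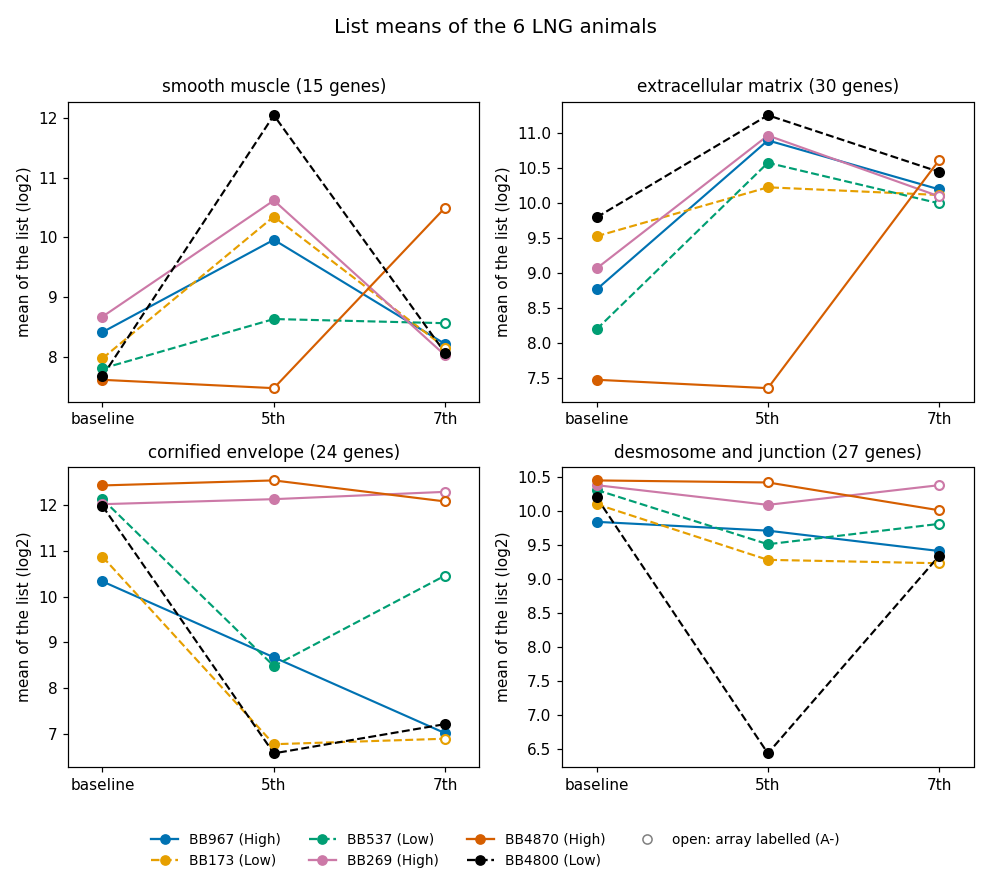
Mean log2 level of 4 gene lists in each of the 6 animals at baseline (mean of the animal's baseline biopsies), 5th and 7th. Solid lines are High, broken lines Low, and open points are arrays labelled (A-). The smooth muscle mean went from 12.05 to 8.06 in BB4800 and from 7.47 to 10.50 in BB4870, and the junction mean of BB4800 was 6.43 at 5th.

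Squamous genes were below the mean of the baseline biopsies at 5th in most animals, and at 7th they were on average near their 5th level. The baseline biopsies of BB967 lay far apart, at 8.37 and 12.29 for the cornified envelope list. Its 5th value of 8.67 lay between them. For the list of squamous proteases and inhibitors its 5th value, 8.55, was below both (8.99 and 11.61). Of 24 cornified envelope genes the median difference between the times was 0.19, against -2.67 at 5th and -2.48 at 7th relative to baseline. Of 23 squamous proteases and inhibitors it was 0.58 between the times, against -2.20 and -1.60, and of 19 suprabasal genes 0.30, against -1.53 and -1.35. Without BB4800, whose 5th array was low in several epithelial genes, the medians between the times were 0.05, 0.21 and -0.06 in that order. Without BB4870 they were 0.33, 0.84 and 0.48. None of these genes passed between the times, and none had an unadjusted p under 0.05 in limma. The baseline is common to both of these differences.

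Single animals, though, moved far along this axis and in both directions. The mean of the 65 genes on these lists was 9.08 at 5th and 7.92 at 7th in BB967, 7.67 and 7.83 in BB173, 8.80 and 10.76 in BB537, 11.79 and 11.82 in BB269, 12.22 and 11.69 in BB4870, and 6.49 and 7.81 in BB4800. Their change was 0.30 ± 1.16 (SD, n = 6). Thus BB269 and BB4870 kept a baseline-like squamous level at both times (11.81 and 12.13 at baseline). BB173 and BB4800 stayed far below theirs (10.96 and 11.71), BB967 went lower still, and BB537 came back part of the way to its baseline of 11.89. The spread among animals, 2.26 at 5th and 1.99 at 7th, was larger than the mean change.

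IVL, which encodes the envelope protein involucrin, was at 10.18 and 5.62 in BB967, 4.74 and 5.17 in BB173, 7.66 and 11.50 in BB537, 12.95 and 13.02 in BB269, 12.94 and 11.75 in BB4870, and 6.14 and 6.09 in BB4800. Its difference was -0.24 ± 1.20 (SE), with a 95% interval from -2.66 to 2.18. At both times the animals were spread widely, with BB173 lowest and BB269 highest. CRNN, encoding the late differentiation protein cornulin, differed by -0.14 ± 1.36, and the desmosomal cadherin gene of the upper layers, DSG1, by -0.17 ± 1.10. TMPRSS11B, a serine protease of squamous epithelia, differed by 0.17 ± 1.57, with 6.38 in BB537 and values from -3.50 to -0.21 in the other 5 animals. Without BB537 it was -1.07 ± 1.70. The protease inhibitor SPINK7 likewise differed by 0.56 ± 1.62, and by -0.63 ± 1.76 without BB537.

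In BB537 the 10 genes with the largest gains included genes of late squamous differentiation, which were chosen after their values were seen. SPINK7 went from 5.30 to 11.81, TMPRSS11B from 6.05 to 12.43, the keratin KRT78 from 6.57 to 12.35, the cross-linking enzyme TGM1 from 5.31 to 10.15 and the protease ASPRV1 from 4.93 to 9.88. Among the largest losses in the same animal were secretory and defence genes: MSMB from 8.01 to 3.36, the mucus-associated FCGBP from 10.41 to 6.95, LCN2, which binds bacterial iron carriers, from 13.07 to 9.81, and the acute phase gene SAA1 from 12.87 to 9.85.

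In BB967 genes of both kinds had changes of the opposite sign, and these too were chosen after their values were seen. KRTDAP, a keratinocyte differentiation gene, went from 12.77 to 5.52, SPRR3, a small proline-rich envelope precursor, from 12.66 to 7.17, and SPRR1B from 11.35 to 7.39. In that animal the secretory lectin ZG16B went from 6.15 to 10.13, SAA1 from 7.91 to 10.69 and PIGR, which carries antibodies across secretory epithelia, from 8.63 to 11.21. Over the kept probe sets the changes of BB967 and BB537 had r = -0.24.

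BB269 and BB4870, the animals that kept their squamous level, shared a gain of DSC1, a desmosomal cadherin of the uppermost layers. DSC1 was at 7.00 and 12.18 in BB269 and at 7.54 and 11.89 in BB4870, while it did not exceed 5.57 at either time in the other 4 animals. At baseline it was 10.20 in BB269 and 9.39 in BB4870. The fitted difference over all 6 was 1.87 ± 0.78 (SE; unadjusted p = 0.0213, adjusted p = 1.00). Without BB269 it was 1.20 ± 0.83, and without BB4870 1.37 ± 0.79. These animals differed in (A-), which BB269 gained and BB4870 had at both times, and both were labelled High.

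The mean difference of the junction genes rested on BB4800. Of 27 desmosome and junction genes 23 were higher at 7th, with a median of 0.45, while 5371 of all 11199 genes were higher. At an unadjusted p under 0.05, 3 of 27 were higher and none lower, where 0.786% of all genes were higher and 2.03% lower. Without BB4800 the median was -0.08. TP63 differed by 1.01 ± 0.47 (SE) and by -0.04 ± 0.16 without BB4800. Its change in the other 5 animals lay between -0.24 and 0.55. Of 5 further TP63 probe sets, with differences from 0.69 to 1.47, 4 were higher in 2 of 6 animals and 1 in 6 of 6 (1.47 ± 0.51, unadjusted p = 0.00662). The 8 basal keratinocyte genes had a median of 0.08, with 5 higher and 3 lower, and -0.02 without BB4800. Single values behaved likewise for CDH1 (0.66, or -0.06 without BB4800), DSC2 (0.96, or -0.12) and SERPINB5 (0.85, or -0.03). The tight junction genes OCLN and F11R differed by 0.67 ± 0.31 and 0.37 ± 0.16, with 2.65 and 2.16 in BB4800. In 16 columnar epithelium genes the median was 0.22, and -0.04 without BB4800.

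**Figure D3:**
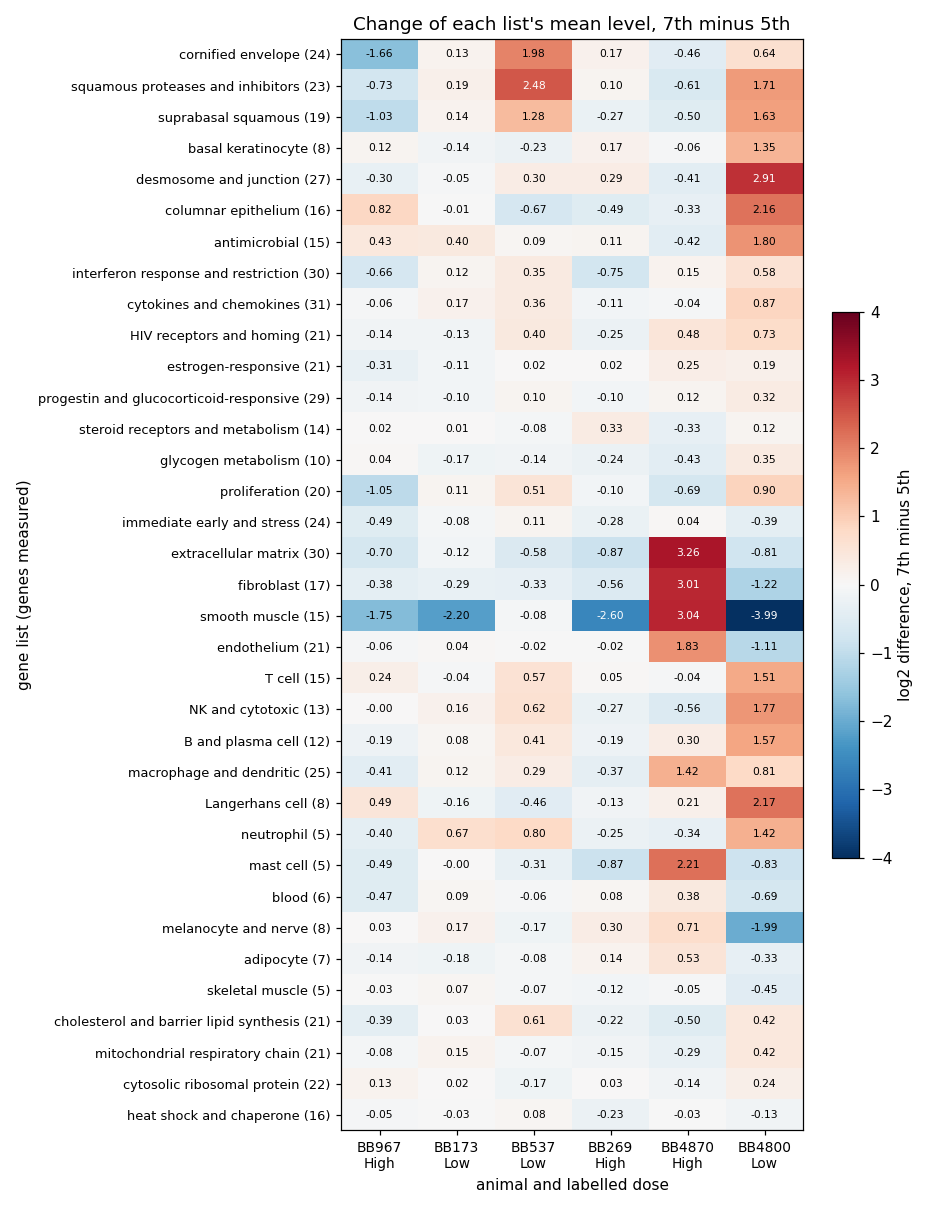
Change in the mean log2 level of each of 35 gene lists (rows, number of measured genes in brackets) from 5th to 7th in each animal (columns, with the labelled dose); red is higher and blue lower at 7th. The extremes stand in the last columns, from -3.99 for smooth muscle in BB4800 to 3.26 for extracellular matrix in BB4870.

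No immune gene passed between the times, and several lists had medians above 0 that were smaller without BB4800 or BB4870. All 15 T cell genes were higher on average, with a median of 0.42, and 1 of 15 at an unadjusted p under 0.05. Among all 11199 genes 5371 were higher, and 0.786% at that p. Without BB4800 the median was 0.15. The T cell mean was higher by 1.51 in BB4800 (from 5.92 to 7.42), 0.57 in BB537 and 0.24 in BB967, and within 0.05 in the other 3 animals. BCL11B, a transcription factor of T cells, differed by 0.51 ± 0.21 (SE) and by 0.19 ± 0.20 without BB4800. CCL5, a chemokine made by activated T and natural killer (NK) cells, differed by 0.78 ± 0.37 and by 0.27 ± 0.35 without BB4800. Among 13 NK and cytotoxic genes the median was 0.30 and 0.04 without BB4800, and CST7, a protease inhibitor of cytotoxic cells, differed by 0.52 ± 0.23. B and plasma cell genes had a median of 0.16 (12 genes), and 0.03 without BB4800. Langerhans cell genes had 0.42 (8 genes, among them CDH1, which epithelium also expresses), and -0.06 without BB4800. Macrophage and dendritic genes had 0.33 (25 genes), 0.16 without BB4800, 0.13 without BB4870 and -0.14 without both, with the largest change of the list mean in BB4870 (1.42).

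The study's title names HIV susceptibility, and the receptors for the virus were measured. CD4, the main receptor, lay between 5.52 and 6.30 at 5th and between 5.74 and 7.00 at 7th. It was higher by 1.28 in BB4870, 1.10 in BB4800 and 0.87 in BB537, with changes from -0.53 to -0.13 in the other animals. The difference was 0.35 ± 0.26 (SE; adjusted p = 1.00), and -0.07 ± 0.31 without BB4800 and BB4870. The coreceptor CXCR4 differed by 0.39 ± 0.32, and by -0.01 ± 0.33 without BB4800. ITGB7, a subunit of the gut-homing integrin on T cells, differed by 0.37 ± 0.25, and by 0.01 ± 0.23 without BB4800. Of 21 HIV receptor and homing genes 19 were higher on average, with a median of 0.10 (0.01 without BB4800), and none had an unadjusted p under 0.05 in limma. Among all 11199 genes 5371 were higher on average.

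Of 15 antimicrobial genes 12 were higher at 7th (5371 of all 11199 genes) with a median of 0.40, or 0.12 without BB4800. SLPI, a secreted protease inhibitor that also acts on microbes, lay between 10.31 and 13.15 at 5th and between 12.14 and 13.25 at 7th. It was higher by 2.66 in BB4800, 2.13 in BB967 and 1.16 in BB537 and within 0.10 in the others, a difference of 1.01 ± 0.50 (SE). S100A8 and S100A9, which form the antimicrobial complex calprotectin, differed by 0.71 ± 0.38 and 0.59 ± 0.28, with 2.63 and 2.87 in BB4800. Interferon response genes had a median of -0.04 over 30 genes, with 17 lower and 13 higher.

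No gene that answers to the hormones passed between the times. PGR, the progesterone receptor, had medians of 9.39 at 5th and 9.39 at 7th and a difference of 0.30 ± 0.38 (SE, 95% interval -0.48 to 1.07). ESR1, the estrogen receptor, differed by -0.14 ± 0.21 and FKBP5, a chaperone gene induced through progesterone and glucocorticoid receptors, by 0.05 ± 0.22 (95% interval -0.39 to 0.48). The medians were 0.04 for 21 estrogen-responsive genes, -0.02 for 29 progestin and glucocorticoid-responsive genes and -0.01 for 14 steroid receptor and metabolism genes. In glycogen metabolism, whose product feeds vaginal lactobacilli, 8 of 10 genes were lower (5827 of all 11199 genes). The median was -0.13, which was -0.01 without BB4870 and -0.23 without BB4800. Of the glycogen genes UGP2, which makes the glucose donor for glycogen, differed by -0.33 ± 0.12 and EPM2A, the glycogen phosphatase laforin, by -0.47 ± 0.22. Each was lower in 5 of 6 animals, with unadjusted p of 0.0113 and 0.0410 in limma, where 2.03% of all genes were lower at a p under 0.05. A further probe set of each had -0.20 and -0.30. Proliferation genes had a median of -0.06 over 20 genes, and were below baseline by the same median, -0.64, at both times. MKI67, a marker of dividing cells, differed by -0.33 ± 0.52.

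Single genes were also counted by how many animals went one way. Of 11199 genes, 60 (0.536%) were higher at 7th in 6 of 6 animals and 156 (1.39%) were lower. With arrays centred on their median these counts were 32 and 226, and after quantile normalization 70 and 145. DOCK8, an exchange factor for the small GTPase CDC42 in immune cells, had the smallest p of the named genes. It was between 7.19 and 8.58 at 5th with a median of 8.01 and between 8.05 and 9.16 at 7th with a median of 8.62. The change was 0.52 to 0.64 in 5 animals and 1.84 in BB4800. The difference was 0.77 ± 0.18 (SE), or 1.71-fold (unadjusted p = 1.47e-04, adjusted p = 1.00), and 0.56 ± 0.18 without BB4800. Further DOCK8 probe sets had 0.81, 0.47 and 0.29, higher in 5, 4 and 4 of 6 animals. Also higher in 6 of 6 animals were the exchange factor gene FGD3 at 0.63 ± 0.23, the lysosome trafficking regulator LYST at 0.51 ± 0.19, the phosphatase INPP4B at 0.64 ± 0.35 and the zinc finger gene ZNF554 at 0.36 ± 0.13. Both further FGD3 probe sets had 0.05, higher in 4 and in 2 of 6 animals. The calcium-binding S100A1 and the endothelial and blood cell transcription factor FLI1 were also higher in each animal, at 0.68 ± 0.46 and 0.46 ± 0.27. The 6 other FLI1 probe sets had differences from -0.13 to 0.46, and the one at -0.13 was lower in 6 of 6 animals. LIAS, which makes the cofactor lipoic acid, was higher in 5 of 6 animals, at 0.48 ± 0.15, and EIF2S3, a translation initiation subunit, in 4 of 6, at 0.25 ± 0.09. A further probe set of each had 0.04 (4 of 6 animals lower) and 0.05 (3 of 6 lower).

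Among lower genes the smallest p belonged to STOML1, of the stomatin family. It was 7.38 to 8.44 at 5th and 6.75 to 7.69 at 7th, with changes from -0.92 to -0.16, lower in 6 of 6 animals, a difference of -0.55 ± 0.14 (SE; unadjusted p = 2.96e-04, adjusted p = 1.00). PAPSS1, which makes the sulfate donor of sulfation reactions, differed by -0.32 ± 0.09, AP3M1, of an adaptor complex for vesicle sorting, by -0.46 ± 0.14 and KIAA1328 by -0.51 ± 0.16, each lower in 6 of 6 animals. Other KIAA1328 probe sets had -0.20 and 0.01, and a further PAPSS1 and AP3M1 probe set had -0.23 and -0.14, each lower in 5 of 6 animals. PLAGL1, an imprinted zinc finger gene, differed by -0.84 ± 0.25 and CHRDL2, a chordin-like inhibitor of bone morphogenetic proteins, by -1.70 ± 0.51, each in 4 of 6 animals. KLHL41, a muscle gene, differed by -1.18 ± 0.47, WASF1, an actin regulator, by -0.82 ± 0.32 (-2.35 in BB4800) and the transcription factor gene ETV1 by -0.61 ± 0.28, each lower in 6 of 6 animals.

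H19, an imprinted long noncoding RNA, had the largest difference among the genes lower in 6 of 6 animals named here. At 5th it was 9.88 in BB967, 8.06 in BB173, 6.78 in BB537, 10.39 in BB269, 9.86 in BB4870 and 12.17 in BB4800. At 7th all 6 animals lay between 6.12 and 7.38. The difference was -2.88 ± 0.82 (SE), or 7.39-fold lower (unadjusted p = 0.00111, adjusted p = 1.00), and -2.25 ± 0.86 without BB4800. Unlike the smooth muscle genes, H19 was lower at 7th in BB4870 too, with a change of -2.48. The level of BB4870 at 5th, 9.86, was below its baseline of 10.80. In BB537 the change was only -0.09. A further H19 probe set differed by -0.50 ± 0.30, lower in 5 of 6 animals. CCL2, a chemokine that draws monocytes, was 6.90 to 10.30 at 5th with a median of 9.47 and 6.40 to 9.53 at 7th with a median of 7.38. It was lower in 6 of 6 animals, with changes from -3.22 in BB967 to -0.50 in BB173, a difference of -1.47 ± 0.54 (unadjusted p = 0.0101, adjusted p = 1.00). At 7th it was -1.57 from baseline (adjusted p = 0.0718) and at 5th -0.10. ATF3, a stress-induced transcription factor, was lower in 6 of 6 animals by one probe set (-0.53 ± 0.29), while a second had 0.00 ± 0.12. HSP90AA1, the inducible cytosolic HSP90 chaperone, differed by -0.35 ± 0.14 and was lower in 5 of 6 animals, in a list of 16 chaperone genes with a median of -0.03.

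**Figure D4:**
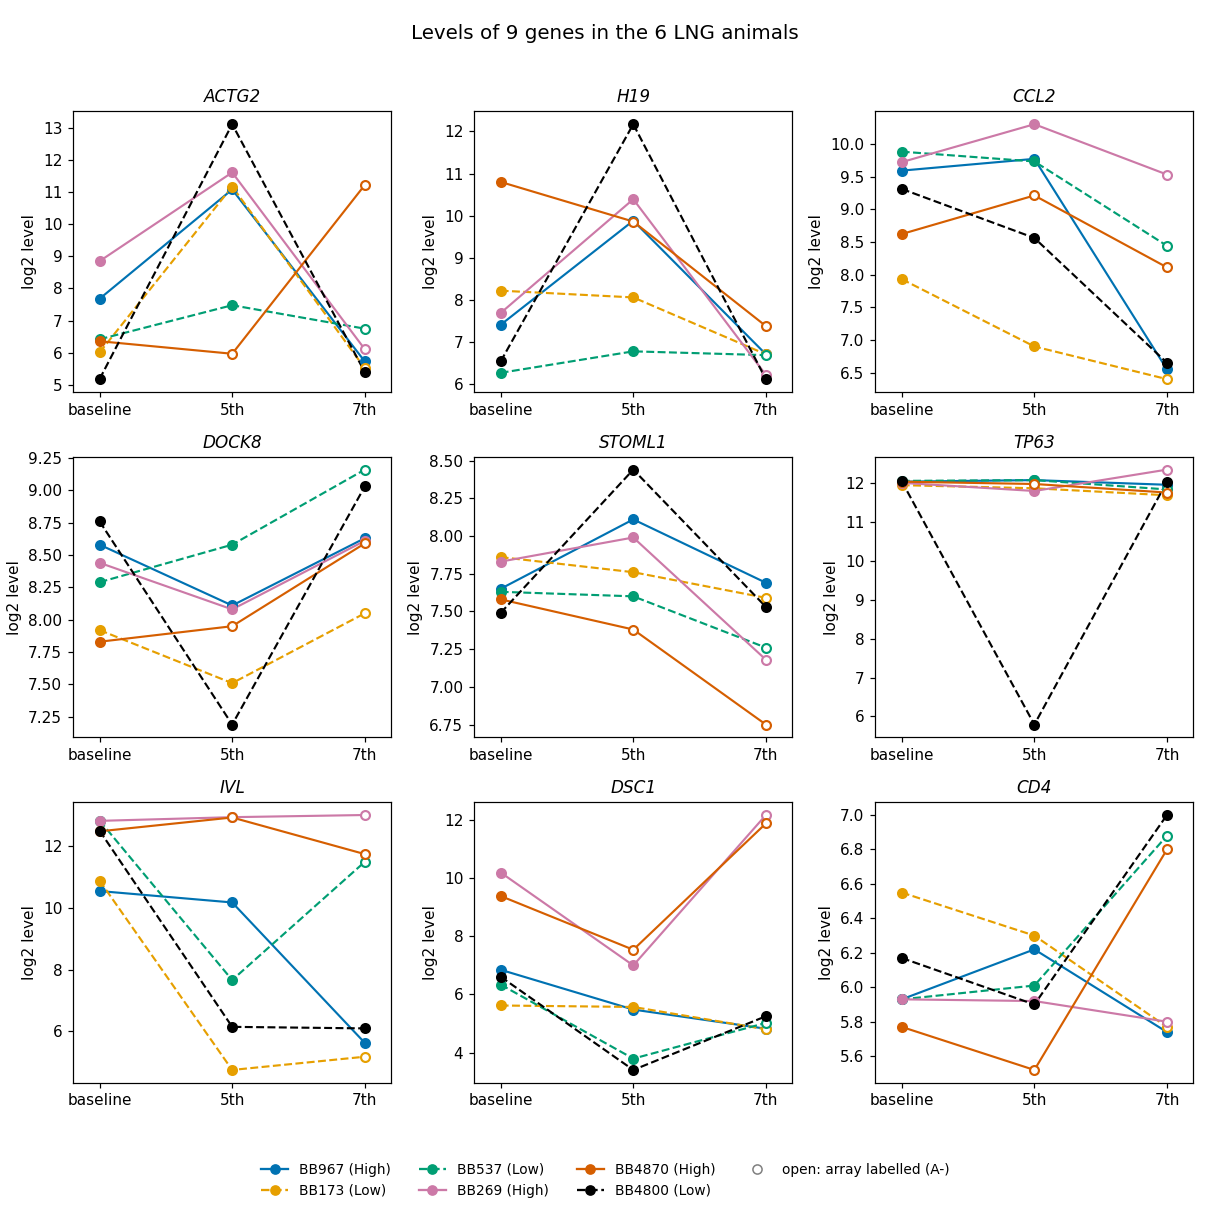
Log2 levels of 9 genes at baseline, 5th and 7th in each of the 6 animals; lines and symbols as for the list means, and each panel has its own vertical range. ACTG2 was lower at 7th in all animals but BB4870, H19 and CCL2 were lower in all 6 by the probe sets shown, and TP63 was at 5.79 at 5th in BB4800.

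Animals were less spread out at 7th than at 5th. Of 35 gene lists, the SD of the list mean among the 6 animals was smaller at 7th in 32, with a median SD of 0.70 at 5th and 0.36 at 7th. For 27 junction genes it was 1.44 and 0.45, for 30 matrix genes 1.45 and 0.24 and for 15 antimicrobial genes 0.98 and 0.25. The cornified envelope was an exception, at 2.58 and 2.59. Without BB4800 and BB4870 the SD was smaller at 7th in 11 of 35 lists, with medians of 0.33 and 0.30.

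No probe set passed the test of a difference between the labelled doses. The change in the High animals minus the change in the Low animals had 0 calls in 31624 probe sets in limma (lowest adjusted p 0.596) and 2560 (8.10%) at an unadjusted p under 0.05, in a comparison of 3 animals against 3. By gene, 6.97% were lower and 2.20% higher in High by that rule. Among 27 junction genes 10 were lower in High, among 13 NK and cytotoxic genes 7, among 23 squamous proteases and inhibitors 6, among 19 suprabasal genes 6 and among 24 cornified envelope genes 4, and none of these were higher. The medians of the dose difference were -1.24, -0.89, -1.99, -1.67 and -1.70 in that order, where all genes had -0.08. The highest medians of the dose difference were in smooth muscle (1.52), fibroblast (1.23), extracellular matrix (1.16) and endothelial genes (1.01). In each of these, 0 or 1 gene was higher in High at an unadjusted p under 0.05. The doses overlapped in the change of the list mean for junction genes (0.29 in BB269, High, and -0.05 in BB173, Low) and cornified envelope genes (0.17 and 0.13). Of the other Low animals, BB4800 had a junction change of 2.91 and BB537 of 0.30. Without BB4870 the probe sets at an unadjusted p under 0.05 numbered 931 and without BB4800 849. The GAPDH 3' minus 5' difference also went apart, up in the 3 High animals and down in the 3 Low ones by means that differed by 0.67, and its part in the dose difference was not tested by itself; with it as a covariate 1363 probe sets were left at that p. The genes with the smallest p were PKN3, a protein kinase (0.97 ± 0.23, SE), KIR2DL4, a receptor of NK cells (-2.76 ± 0.65), and SLC37A1, a sugar phosphate transporter (-2.02 ± 0.49), each with an adjusted p of 0.596.

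The change in the 3 animals that gained (A-) minus that in the 3 that did not also had 0 calls, with 863 probe sets (2.73%) at an unadjusted p under 0.05 and a lowest adjusted p of 0.609. The smallest p belonged to FAM151B (-1.85 ± 0.38, SE), TAF8, a subunit of the general transcription factor TFIID (-1.28 ± 0.34), and CTPS1, which makes the nucleotide CTP (1.57 ± 0.42). Each array weighted by its estimated quality gave 2490 calls for this difference, but the estimation of the weights stopped before it converged. No probe set passed for a difference between the arms: LNG 7th minus 5th less DMPA 2D2 minus 1D4 had 0 calls, 1237 probe sets (3.91%) at an unadjusted p under 0.05 and a lowest adjusted p of 0.933. PAPSS1 differed most by p, with a mean of -0.32 in LNG and 0.24 in DMPA (difference -0.55 ± 0.12), followed by AP3M1 (-0.72 ± 0.18) and STOML1 (-0.73 ± 0.18).

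Each time was also set against the animals' own baseline, which both share. At 7th 2 probe sets passed (0.00632%), both lower and without a gene name, and 7487 (23.7%) had an unadjusted p under 0.05. At 5th none passed (lowest adjusted p 0.0544) and 6828 (21.6%) had an unadjusted p under 0.05. These counts depended on single animals. Without BB269 1094 passed at 7th and 920 at 5th, without BB4870 0 and 3186, and without any other animal at most 4 and at most 1. The GAPDH difference was 1.37 to 1.92 as a mean over each animal's baseline biopsies and 1.20 to 2.68 at the treated times, and with it as a covariate 0 probe sets passed and 2110 had an unadjusted p under 0.05 at 7th.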

How the data were processed

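Values were log2 expression per probe set, as the authors deposited them, with 1 column per array. Per the submitters' processing notes, affy and Partek were used; the background correction, normalization and summarization are not given in the sources used here. Amplified cDNA was labelled with biotin, per the labels' protocols. There were 52865 probe sets. After removal of 158 controls, a mean at or above the 40th percentile (5.53) was required, and 31624 were kept, naming 11199 genes. A gene with several took the brightest on average. A labelled duplicate array outside the compared times was averaged with its partner, giving 57 samples. Symbols come from the platform's annotation: 24969 probe sets have 1, 361 several and 27535 none. Positions and sequences are not used here. The number of arrays limits the precision.

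All 57 samples entered one linear model (limma 3.58.1 under R 4.3.3; statmod 1.5.0 for random blocks) with the animal as a fixed block, since the same animals were biopsied at both times; p was adjusted by Benjamini-Hochberg over all kept probe sets. The contrast equals the mean of the 6 differences within animals, and the fit was tested on simulated data. The standard errors and p-values rest on 1 spread per probe set, estimated over all 57 samples of both arms. They can therefore be smaller or larger than the 6 differences alone would give. The animals, the 35 gene lists (917 genes, 567 measured, 5 to 31 per list) and the rules were chosen with earlier results of these data known; some genes are on several lists. Named genes are the 8 with the smallest p and the 6 most even over animals in each direction, up to 3 per list, 3 per difference of changes and a fixed set of 16, of which CD207, KRT5 and ACTA2 were under the filter. The leading genes of single animals, and MYH11, were chosen after their values were seen. Alternatives were the sample set, block, baseline phases, scaling, filter, variance model, array weights, covariates, another probe set and each animal left out.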

Additional observations from a re-analysis of the deposited data

Results flagged for a closer look

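A result was taken up here where 1 animal lay far from the other 5 in the 7th minus 5th difference (Dixon's test), or where all animals of one labelled group went one way and all of the other group the opposite way. Of 93 results looked at (56 genes, 35 lists and the GAPDH and actin controls), 25 had 1 animal apart, 17 of them BB4800 and 5 BB4870. Dixon's rule marks about 1 in 20 groups of normal values. The results looked at were partly chosen from these data and share genes and animals, so that their number cannot be judged against that rate. Over all 11199 genes 11.4% had 1 animal apart.

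In BB4800 these were TP63 (6.25), CDH1 (4.29), DSC2 (6.37), SERPINB5 (5.28), F11R (2.16), ITGB7 (2.19), CCL5 (3.33), S100A9 (2.87), DOCK8 (1.84), INPP4B (1.58) and WASF1 (-2.35). The lists were basal keratinocyte (1.35), desmosome and junction (2.91), B and plasma cell (1.57), Langerhans cell (2.17), melanocyte and nerve (-1.99) and skeletal muscle (-0.45). In BB4870 they were COL1A1 (4.75), FLI1 (1.70) and the lists of extracellular matrix (3.26), fibroblasts (3.01) and mast cells (2.21). The others were TMPRSS11B in BB537 (6.38), TNC in BB269 (-4.17) and AP3M1 in BB967 (-1.54).

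By the labelled dose, the High and Low animals went opposite ways for CDH1 (mean change in High minus Low -1.83), S100A8 (-1.79) and the lists of suprabasal squamous (-1.62), cytokine and chemokine (-0.54), proliferation (-1.12), NK and cytotoxic (-1.13), neutrophil (-1.29) and cholesterol and barrier lipid genes (-0.72), and for the GAPDH 3' minus 5' difference (0.67). By the gain of (A-), they did so for IVL (3.38), FKBP5 (0.89) and the Langerhans cell list (-1.21). The list and GAPDH differences were not tested. In limma the adjusted p of the dose difference was 0.596 for both CDH1 and S100A8, and that of the (A-) difference 1.00 for both IVL and FKBP5. Of all genes, 7.50% went opposite ways by dose and 2.62% by the gain of (A-).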

How the results depend on the processing

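The 7th minus 5th difference had 0 calls under each of 23 other settings, with 466 to 1870 probe sets at an unadjusted p under 0.05 among those that kept all probe sets of the main filter. The samples are paired by animal: without the replicate block there were also 0 calls (505 at an unadjusted p under 0.05), and with the 12 treated arrays alone 0 (1020). The dose and arm differences of the change had 0 calls under each setting run, and the (A-) difference 0 except with array weights (2490). There CTPS1 (1.42), FAM151B (-1.55) and TAF8 (-1.11) passed.

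Against baseline at 7th, in place of 2 calls, there were 0 with LNG animals only, no replicate block, quantile normalization, 1 probe set per gene, the GAPDH or stroma covariate or the duplicate left out, 4 with no filter, 547 with a random block, 560 with a stricter filter, 1950 with separate phases, 3572 with array weights, and 0 to 1094 with an animal left out. At 5th, in place of 0, there were 1, 754, 748, 1808 and 1708 in the same order, 198 with 1 probe set per gene, and 0 to 3186 with an animal left out. The cause was not tested.

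Of 1491 gene values under other settings 1452 kept their direction and side. With an animal left out the ranges were -0.04 to 1.26 for TP63, -0.06 to 0.90 for CDH1, -0.12 to 1.30 for DSC2, -0.03 to 1.15 for SERPINB5, -0.53 to 0.53 for DSG1, -1.06 to 0.62 for IVL, -1.06 to 0.42 for CRNN, -1.07 to 0.91 for TMPRSS11B, -0.63 to 1.31 for SPINK7, -0.67 to 0.51 for COL1A1, -0.01 to 0.66 for CXCR4, -0.03 to 0.48 for PGR, -0.07 to 0.23 for FKBP5 and -0.08 to 0.19 for the GAPDH difference. Signs also turned for DSC2 (-0.03), TMPRSS11B (-0.89), SPINK7 (-0.47), COL1A1 (-0.41) and FKBP5 (-0.03) with array weights, for DSG1 (0.08), IVL (0.02) and CRNN (0.11) with the GAPDH covariate, for TMPRSS11B with the stroma covariate (-0.08), and for TMPRSS11B (-2.60), SPINK7 (-1.76) and FKBP5 (-0.16) with the (A-) covariate. Without BB4800 and BB4870, a setting added after seeing the data, they turned for DSC2 (-0.05), CRNN (0.27), COL1A1 (-0.70) and CD4 (-0.07). Other probe sets gave -0.13 and -0.10 for FLI1, 0.01 for KIAA1328 and 0.00 for ATF3.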
